A study of Homo sapiens with 12 samples.

Results

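HPPE and zinc protoporphyrin were compared directly in SH-SY5Y, a noradrenergic line from a human neuroblastoma that is widely used as a neuronal model. The comparison took 6 of the 12 libraries of the study, 3 treated with HPPE and 3 with zinc protoporphyrin, and all genes that passed a filter on low counts, which were 16366 of the 60710 in the table. Each compound was present at 5 µM for 5 h in cells grown in DMEM/F12 with serum, penicillin and streptomycin. Zinc protoporphyrin is the porphyrin of heme with zinc in place of iron and is known as an inhibitor of heme oxygenase. HPPE is known here only by its code name. The 6 remaining libraries, 3 with DMSO alone and 3 with tin protoporphyrin at the same dose and time, entered the model to estimate the spread, and the DMSO values are given beside those of the compounds. All wells held 2 mL of medium and received 10 µL of DMSO. Both compounds of this 1 pair were given at the same dose and time. The labels do not state that the 3 libraries of a group came from separate cultures, so p-values measure the spread between these libraries.

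Several of the genes that separated the compounds belong to well-known stress pathways. NRF2, encoded by NFE2L2, is a transcription factor that is held low by the ubiquitin adaptor KEAP1. When KEAP1 is modified by electrophiles, NRF2 accumulates, pairs with small MAF proteins and raises genes for glutathione, thioredoxin, NADPH and detoxification through antioxidant response elements. BACH1 is a heme-binding repressor that occupies the same elements, above all at HMOX1, the gene of the inducible heme oxygenase that opens the heme ring and releases iron, carbon monoxide and biliverdin. MTF1 raises metallothioneins and the zinc exporter SLC30A1 when free zinc rises, and HSF1 raises cytosolic chaperones when proteins misfold.

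The libraries of the compared groups stood apart in more than the compound. Total counts were 8002766, 8578158 and 3141853 with HPPE and 1337028, 7855473 and 8540540 with zinc protoporphyrin, so zinc protoporphyrin replicate 1 was the shallowest library of the series, and 3 counts corresponded to 2.26 CPM there. Across 10952 expressed genes, each library's departure from the mean of all 12 was set against transcript length; Spearman's rho was -0.099, -0.47 and -0.45 in the HPPE libraries and 0.22, 0.38 and 0.57 in the zinc protoporphyrin libraries, with no overlap between the groups. This trend was modelled as an offset for each gene in each library, after which the correlation lay between -0.013 and 0.015 in all 12 libraries. A second difference was left. With the length trend removed, an axis was drawn from the spread within the DMSO and tin protoporphyrin libraries alone, where it held 65.6% of the deviation. The HPPE libraries scored -0.061, -0.74 and -0.83 on it and the zinc protoporphyrin libraries 0.42, 0.75 and 1.35, again without overlap. The share of counts in antisense, lincRNA, sense-intronic and unconfirmed transcripts ran with it, at 1.71%, 1.55% and 1.51% with HPPE and 1.86%, 1.84% and 2.26% with zinc protoporphyrin. A fit that takes this axis as a covariate, added after the data were seen and called the control library axis below, is given beside the counts of the gene lists.

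**Figure D1:**
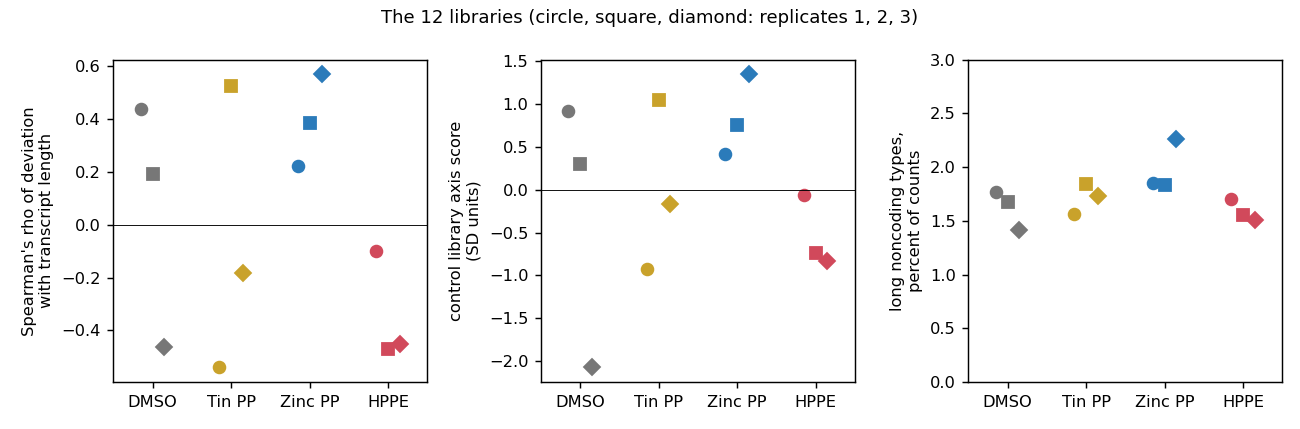
Each point is 1 of the 12 libraries. The left panel gives, before any correction, Spearman's rho of its departure from the mean of all 12 libraries with transcript length, the middle panel the score on the control library axis in SD units after the length trend was removed, and the right panel the percent of counts in long noncoding types. HPPE and zinc protoporphyrin libraries do not overlap in any panel, whereas DMSO libraries run from -0.46 to 0.44 in the left one.

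The noradrenergic markers of the line were present in both groups. Of 22 such genes, 21 were tested, and their summed level was 7043 to 7079 CPM with HPPE and 6636 to 7127 CPM with zinc protoporphyrin; TH had at most 2 counts in any library. Of 8 epithelial and immune markers, KRT5, KRT14, LYZ and CD3E were at 0 in all libraries, and the sum of the list was at most 1.62 CPM with HPPE and 1.91 CPM with zinc protoporphyrin. Of 12 mesenchymal markers 11 were tested, with a sum of 1605 to 1642 CPM with HPPE and 1407 to 1633 CPM with zinc protoporphyrin. Of 8 Schwann and glial markers 2 were tested, and their sum was 3.37 to 4.14 CPM with HPPE and 4.46 to 7.49 CPM with zinc protoporphyrin.

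With HPPE, 6 of 22 genes for heme breakdown and iron, 6 of 12 for glutathione, 5 of 14 for thioredoxin, 6 of 8 for metallothioneins and zinc efflux and 19 of 27 for cytosolic chaperones were higher than with zinc protoporphyrin, and 0 were lower. Among all genes tested 5.55% were higher. The lists were chosen with earlier results of these data known, so these shares are a description and no test of the lists. HMOX1 differed 7.22-fold, NQO1 5.05-fold, GCLM 4.12-fold and the main constitutive HSP70 gene, HSPA8, 1.74-fold. The zinc importer gene SLC39A10 and the ligand genes TGFB2 and TGFB3 were lower, 1.99-fold, 2.01-fold and 2.58-fold. TGFB2 and TGFB3 lay outside the rule for naming genes and were chosen after their values were seen. With the length offsets, 908 genes (5.55% of those tested) were higher and 1278 (7.81%) lower with HPPE than with zinc protoporphyrin, at an adjusted p under 0.05 by edgeR's quasi-likelihood test. At least 2-fold, 53 (0.324%) were higher and 330 (2.02%) lower. The replicate values of the groups did not overlap for 2334 genes (14.3%) that were higher and 3143 (19.2%) that were lower. With the control library axis the counts were 393 higher (2.4%) and 412 lower (2.52%), of which 315 and 350 were among the first. At least 2-fold, 27 were higher and 24 lower with that axis. Across genes, the log2 fold change with the length offsets alone correlated at -0.59 with each gene's weight on the axis. The parts of compound and library in this were not tested. Single libraries also carried many of the calls. The counts were 242 higher and 319 lower without zinc protoporphyrin replicate 3, 301 and 338 without HPPE replicate 2, and 405 and 501 without HPPE replicate 3. In all, 135 higher (0.825%) and 171 lower genes (1.04%) were called in the same direction in the fit and in all 21 alternatives.

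Leaving out the length term changed which genes were called. Without a length term, 1054 genes were higher, with a median transcript length of 2638 nt, and 1024 lower, with a median of 5984 nt. Of these, 621 and 760 were also called with the offsets. Among the 10% of expressed genes with the shortest transcripts, 19.0% were higher and 1.37% lower without the term, against 6.29% and 3.92% with it. Among the 10% with the longest, 1.19% were higher and 28.5% lower without the term, against 11.4% and 13.4% with it. Across the 10952 expressed genes, on which the curves were fitted, the log2 fold change correlated with length at -0.53 without the term and at 0.0042 with it. Across all 16185 tested genes with a length, rare ones included, rho was -0.23 without the term, 0.21 with it and 0.062 with the control library axis, so the offsets left a trend of opposite sign there. These are correlations across genes, which are no replicates. TTN, the very long titin gene, had a log2 fold change of -0.53 without the term (adjusted p 0.0232) and 0.23 with it (adjusted p 0.199). Among short genes, the prefoldin subunit gene PFDN2 moved from 0.53 (adjusted p 0.0432) to 0.12 (adjusted p 0.262) and the splicing factor gene SF3B6 from 0.55 (adjusted p 0.0353) to 0.16 (adjusted p 0.178).

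**Figure D2:**
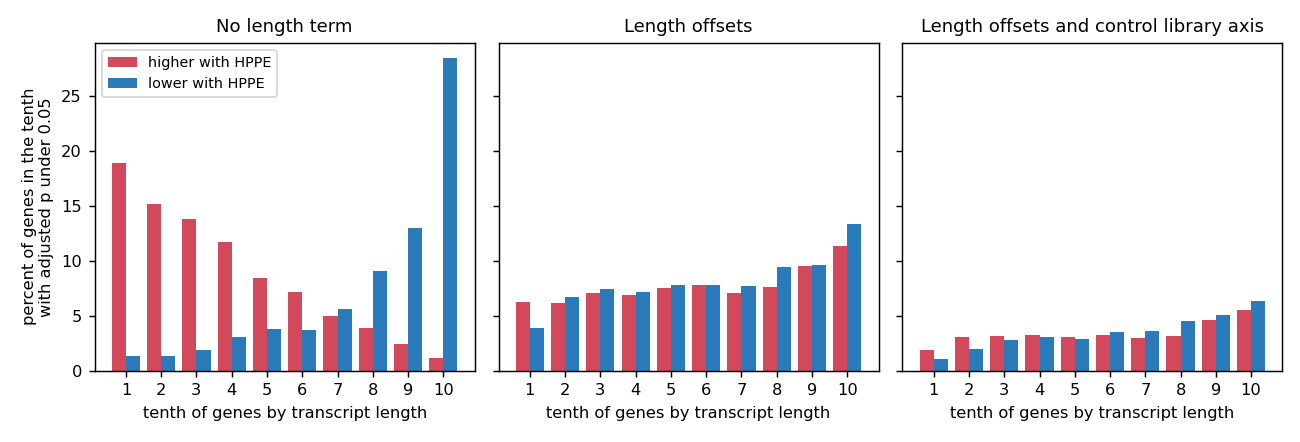
Expressed genes were divided into 10 bins of equal size by the length of their longest transcript (x axis, shortest at 1), and bars give the percent of each bin called higher or lower with HPPE. Without a length term, calls run from 19.0% higher in the shortest bin to 28.5% lower in the longest; with the offsets the shares in each direction lie closer together, and with the control library axis they are smaller in every bin than with the offsets alone.

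Values below are counts scaled to library size (CPM) with each library's length trend removed; they are not divided by transcript length, so they compare libraries and not genes. Fold changes are log2 of HPPE over zinc protoporphyrin, and ± gives the SE of the model. The counts of each list stand against 5.55% higher and 7.81% lower among all genes tested, as a description, since the lists were chosen with earlier results known. Of the heme breakdown, heme transport and iron genes, 6 of 22 were higher and 0 lower with HPPE (median log2 fold change 0.13, against -0.053 over all genes tested). HMOX1 (ENSG00000100292.18) stood at 326, 326 and 317 CPM with HPPE and 71.3, 46 and 35.3 CPM with zinc protoporphyrin, beside 5.9, 4.73 and 6.69 CPM with DMSO. All HPPE libraries were far above the highest zinc protoporphyrin library, and all zinc protoporphyrin libraries were above all DMSO libraries. The direct difference was 2.85 ± 0.13 on the log2 scale, or 7.22-fold, with an adjusted p of 1.29e-08. Ferritin, the cage that stores iron, followed in both of its subunit genes. The heavy chain gene FTH1 stood at 393, 398 and 374 CPM with HPPE and 271, 223 and 227 CPM with zinc protoporphyrin, a log2 fold change of 0.72 ± 0.077 (adjusted p 6.57e-06). The light chain gene FTL stood at 501, 555 and 542 CPM with HPPE and 398, 376 and 406 CPM with zinc protoporphyrin, with 0.44 ± 0.058 (adjusted p 6.14e-05). TFRC, the transferrin receptor that brings iron into cells, was higher by 0.42 ± 0.056 (adjusted p 6.87e-05), and SLC48A1, which moves heme out of lysosomes, by 0.70 ± 0.12 (adjusted p 9.65e-04). These 5 genes were called in all 21 alternatives, also with the control library axis and without zinc protoporphyrin replicate 3. PGRMC1, a heme-binding membrane protein, had 0.29 ± 0.086 (adjusted p 0.0321) and lost its call in 7 of 21. The constitutive heme oxygenase HMOX2 was not called (-0.28 ± 0.12, adjusted p 0.105).

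Glutathione synthesis and cystine import had 6 of 12 genes higher and 0 lower (median 0.27). Of these 6, 5 were called with the control library axis, 3 without zinc protoporphyrin replicate 3 and 3 in all 21 alternatives. SLC7A11, the cystine subunit of the cystine-glutamate exchanger, stood at 102, 95.1 and 102 CPM with HPPE and 38.9, 11.8 and 10.9 CPM with zinc protoporphyrin, beside 9.05, 6.17 and 9.76 CPM with DMSO. Replicate 1 of zinc protoporphyrin was far above the other two of its group, and the log2 fold change was 2.80 ± 0.29 (adjusted p 4.78e-04) with it and 3.13 (adjusted p 5.09e-12) without it. GCLM, the regulatory subunit of the enzyme that makes the first bond of glutathione, stood at 161, 156 and 154 CPM with HPPE and 56, 36.2 and 34.9 CPM with zinc protoporphyrin, a log2 fold change of 2.04 ± 0.097 (adjusted p 7.51e-12). The catalytic subunit gene GCLC differed less, at 57.8, 61.2 and 58.8 CPM with HPPE and 49.1, 45.6 and 44.3 CPM with zinc protoporphyrin (0.38 ± 0.086, adjusted p 0.00708). GSR, which returns oxidized glutathione to its reduced form, was at 154, 150.1 and 154 CPM with HPPE and 86.3, 93.4 and 92.1 CPM with zinc protoporphyrin, and the groups lay apart with 0.74 ± 0.077 (adjusted p 2.72e-06). SLC3A2, the heavy chain partner of SLC7A11, had 0.46 ± 0.10 (adjusted p 0.0084), but its highest zinc protoporphyrin value, 81.7 CPM in replicate 1, lay above all HPPE libraries. Glutathione peroxidase 4, which removes lipid peroxides, was not called (0.27 ± 0.097, adjusted p 0.0684).

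Of the thioredoxin and peroxiredoxin genes, 5 of 14 were higher and 0 lower (median 0.21). Of these 5, 4 were called with the control library axis, 3 without zinc protoporphyrin replicate 3 and 3 in all 21 alternatives. TXNRD1, the cytosolic thioredoxin reductase, stood at 758, 805 and 822 CPM with HPPE and 298, 259.6 and 235 CPM with zinc protoporphyrin, beside 247, 234 and 217 CPM with DMSO. The difference was 1.61 ± 0.071 (adjusted p 7.51e-12), and the zinc protoporphyrin values overlapped those of DMSO. PRDX1, a peroxiredoxin that TXN reduces, had 0.64 ± 0.086 (adjusted p 8.94e-05), and TXN itself 0.53 ± 0.099 (adjusted p 0.002). PRDX3 and PRDX6 were called as well (0.37 ± 0.08 and 0.23 ± 0.058), while SRXN1, the sulfiredoxin that repairs overoxidized peroxiredoxins, was not (0.55 ± 0.27, adjusted p 0.17). TXNIP, which binds and inhibits thioredoxin, was lower than DMSO with both compounds (-0.75 with HPPE, adjusted p 5.42e-06; -0.59 with zinc protoporphyrin, adjusted p 3.14e-04), and no difference between the compounds was called (-0.16 ± 0.091, adjusted p 0.245; 95% interval -0.35 to 0.033).

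The promoters of TXNRD1 and GCLM are shown because each holds the core of the antioxidant response element, TGACNNNGC, in the 250 bases before its start. The core was searched on both strands and is in capitals, in the first on the strand printed and in the second as its reverse complement. The windows are from RefSeq on GRCh38.p14, at chr12:104215529-104215778 on the plus strand and chr1:93909431-93909680 on the minus strand. Heme breakdown and iron, glutathione, thioredoxin, NADPH supply, detoxification and NRF2 regulators made 6 redox and iron lists with 89 genes tested. Of the 33 called higher in them, 23 had a promoter in the table and 6 held the core, which is 26.1%. Of the 56 not called higher, 50 had a promoter and 7 held the core, which is 14%. Among 27305 promoters the core was in 11%, and among those of 11351 tested genes in 12.2%.
TXNRD1: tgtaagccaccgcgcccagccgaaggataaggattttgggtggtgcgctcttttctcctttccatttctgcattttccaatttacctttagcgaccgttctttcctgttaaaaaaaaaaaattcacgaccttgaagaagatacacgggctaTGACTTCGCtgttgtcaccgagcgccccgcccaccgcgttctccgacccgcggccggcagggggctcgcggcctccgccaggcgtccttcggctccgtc
GCLM: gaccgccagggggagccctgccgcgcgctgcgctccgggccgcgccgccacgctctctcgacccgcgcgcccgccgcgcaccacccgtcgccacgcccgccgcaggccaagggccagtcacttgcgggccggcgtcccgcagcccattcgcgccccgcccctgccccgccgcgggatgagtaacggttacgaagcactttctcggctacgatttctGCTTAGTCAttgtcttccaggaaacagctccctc

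NADPH pays for both systems. Of the 9 genes for its supply, 3 were higher and 0 lower (median 0.027), and all 3 were called in all 21 alternatives. ME1, the cytosolic malic enzyme, stood at 57, 59.6 and 64.1 CPM with HPPE and 43.8, 28.7 and 27.2 CPM with zinc protoporphyrin, a difference of 1.99-fold (SE 0.11 on the log2 scale, adjusted p 9.43e-06). TKT, the transketolase of the pentose phosphate pathway, had 0.60 ± 0.073 (adjusted p 2.83e-05).

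Detoxifying enzymes and exporters known as NRF2 targets had 10 of 17 genes higher and 0 lower (median 0.44). Of these 10, 7 were called with the control library axis, 6 without zinc protoporphyrin replicate 3 and 5 in all 21 alternatives. NQO1, the quinone reductase, stood at 111, 119.8 and 126 CPM with HPPE and 31, 24.2 and 20.6 CPM with zinc protoporphyrin, beside 20.7, 21.8 and 23.4 CPM with DMSO. Zinc protoporphyrin and DMSO libraries overlapped, and the difference between the compounds was 2.34 ± 0.11 (adjusted p 7.51e-12), or 5.05-fold. OSGIN1, an oxidative stress-induced growth inhibitor, stood at 67.7, 70.2 and 70.3 CPM with HPPE and 18, 10.5 and 8.97 CPM with zinc protoporphyrin (2.71 ± 0.16, adjusted p 3.94e-10). The organic anion exporter gene ABCC3 stood at 53.3, 55.7 and 57.8 CPM with HPPE and 23.9, 17.4 and 19.7 CPM with zinc protoporphyrin, with both groups above the 10.7, 9.99 and 12.8 CPM of DMSO (1.53 ± 0.11, adjusted p 1.55e-08). The aldo-keto reductase genes AKR1C1 and AKR1C3 were higher by 1.67 ± 0.33 and 1.43 ± 0.22 (adjusted p 0.00279 and 4.29e-04); they are close copies, so the division of reads among them is uncertain. NQO2 was higher by 1.06 ± 0.21 (adjusted p 0.0036) and was not called with the control library axis (0.53, adjusted p 0.0883). Among the 10 largest increases was also the noncoding RNA LUCAT1, at 16.2, 11.7 and 14.7 CPM with HPPE and 3.09, 2.02 and 1.56 CPM with zinc protoporphyrin (2.87 ± 0.29, adjusted p 1.81e-06). LUCAT1 is annotated as antisense, and use of strand in counting is not given in the sources used here, so reads of an overlapping gene cannot be told apart from its own.

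**Figure D3:**
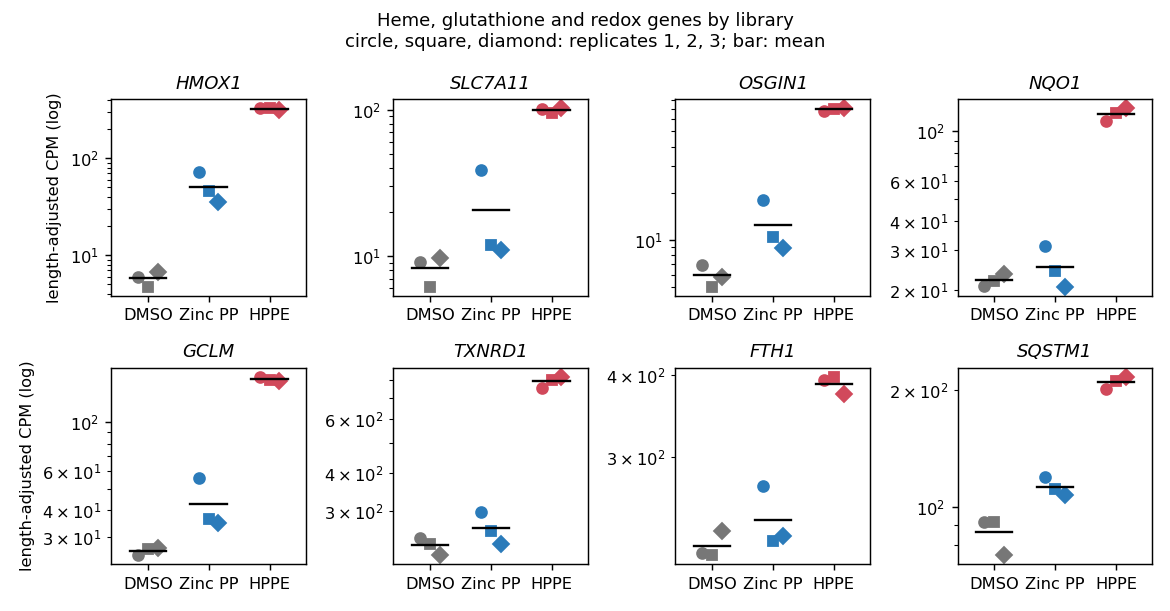
Length-adjusted CPM on a log axis for 8 genes in the DMSO, zinc protoporphyrin and HPPE libraries, with replicates as symbols and the mean as a bar. HPPE libraries lie above all zinc protoporphyrin libraries in every panel, and zinc protoporphyrin replicate 1 (circle) is the highest of its group in each, at 71.3 CPM for HMOX1 and 38.9 CPM for SLC7A11.

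Among the regulators of the pathway 3 of 15 genes were higher and 0 lower (median 0.13), and the 3 were also called with the control library axis. SQSTM1, the autophagy receptor that binds KEAP1, stood at 201, 211 and 217 CPM with HPPE and 119.8, 112 and 108 CPM with zinc protoporphyrin, a log2 fold change of 0.91 ± 0.066 (adjusted p 1.11e-08). The small MAF gene MAFG was higher by 0.54 ± 0.07 (adjusted p 5.05e-05), and KEAP1 by 0.34 ± 0.071 (adjusted p 0.00447). The transcripts of NRF2 and BACH1 were not called. NFE2L2 stood at 51.4, 53.5 and 57.6 CPM with HPPE and 50.4, 48.4 and 48.2 CPM with zinc protoporphyrin, with 0.14 ± 0.082 and a 95% interval of -0.026 to 0.31 (adjusted p 0.236). BACH1 stood at 79.2, 73 and 66.3 CPM with HPPE and 61.2, 64.3 and 72.7 CPM with zinc protoporphyrin, with 0.13 ± 0.093 and an interval of -0.067 to 0.32 (adjusted p 0.367); with the control library axis it was 0.34 (adjusted p 0.00974).

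Zinc protoporphyrin replicate 1 moved with this group. In 22 of the 33 genes called higher in the 6 redox and iron lists, it was the highest of the 3 zinc protoporphyrin libraries. It was the highest in 49.2% of the 842 genes called higher with a mean of at least 10 CPM, and in 38.7% of all 10436 tested genes at that level. It was also the shallowest library. Without it, 31 of the 33 were called, 27 with the control library axis and 22 without zinc protoporphyrin replicate 3; 21 were called in all 21 alternatives. The part of this library in the result was not tested.

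In heme synthesis 4 of 14 genes were higher with HPPE and 0 lower (median 0.22). Of these 4, 3 were called with the control library axis, 3 without zinc protoporphyrin replicate 3 and 2 in all 21 alternatives. ALAS1, the first and rate-limiting enzyme of the pathway, stood at 30.3, 33.3 and 32.2 CPM with HPPE and 13.3, 13.4 and 13.3 CPM with zinc protoporphyrin, beside 25, 26.3 and 29.3 CPM with DMSO. Zinc protoporphyrin libraries were below all others, and the difference between the compounds was 1.26 ± 0.11 (adjusted p 4.24e-07). Against DMSO the log2 fold change was -0.98 with zinc protoporphyrin (adjusted p 3.52e-05) and 0.28 with HPPE (adjusted p 0.106); both use the same DMSO libraries. ALAD, the next enzyme, had the same order, at 25.9, 24.5 and 26.6 CPM with HPPE and 20, 18.6 and 19.7 CPM with zinc protoporphyrin (0.40 ± 0.11, adjusted p 0.0179), and lost its call in 6 of 21 alternatives. FECH, which inserts the iron, was at 63.1, 68.7 and 58.8 CPM with HPPE and 44.5, 41.5 and 38.3 CPM with zinc protoporphyrin and differed by 0.66 ± 0.087 (adjusted p 5.42e-05); it was above DMSO with HPPE (0.41, adjusted p 0.00298) and not called with zinc protoporphyrin (-0.25, adjusted p 0.12). The porphyrin transporter gene ABCB6 was higher by 0.96 ± 0.22 (adjusted p 0.00756). UROS, UROD, CPOX and PPOX, which make steps between ALAD and FECH, were not called, with log2 fold changes between -0.16 and 0.32.

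Several metallothionein genes and the zinc exporter gene SLC30A1 were higher with HPPE than with zinc protoporphyrin. Of the metallothionein and zinc efflux genes, with their metal sensor MTF1, 6 of 8 were higher and 0 lower (median 2.45). Of these 6, 4 were called with the control library axis, 5 without zinc protoporphyrin replicate 3 and 4 in all 21 alternatives. MT2A, a metallothionein that binds zinc and other metals, stood at 14, 14.4 and 21.2 CPM with HPPE and 6.4, 2.52 and 3.24 CPM with zinc protoporphyrin, beside 2.6, 2.27 and 5.18 CPM with DMSO, a log2 fold change of 2.30 ± 0.28 (adjusted p 2.47e-05). MT1X stood at 7.27, 8.8 and 9.46 CPM with HPPE and 3.97, 0.835 and 1.15 CPM with zinc protoporphyrin (2.71 ± 0.47, adjusted p 0.00151). MT1E stood at 4.63, 6.67 and 7.34 CPM with HPPE and 3.2, 0.699 and 0.316 CPM with zinc protoporphyrin (2.95 ± 0.49, adjusted p 7.11e-04). In both, replicate 1 of zinc protoporphyrin lay between the rest of its group and HPPE. In replicates 1, 2 and 3 of zinc protoporphyrin 3 counts corresponded to 2.26, 0.393 and 0.361 CPM. The MT1X and MT1E values of that group, and this order of its replicates, therefore rest on few reads. MT1F was higher by 2.59 ± 0.49 (adjusted p 0.00211) but not with the control library axis (1.43, adjusted p 0.142). MT1G was near the limit of detection, at 3.01, 3.16 and 2.25 CPM with HPPE and 3.99, 0.14 and 0 CPM with zinc protoporphyrin, so that replicate 1 with zinc protoporphyrin lay above all HPPE libraries. Its difference was 2.66 ± 0.85 (adjusted p 0.0492) with that library and 4.97 (adjusted p 0.00273) without it, and 10 of 21 alternatives lost the call. Metallothionein genes are close copies, so reads could be divided among them. No metallothionein exceeded 21.2 CPM in the compared libraries, and zinc protoporphyrin replicate 1 was the highest of its group in all 6 called genes.

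SLC30A1, which carries zinc out of the cell, stood at 132, 121 and 117 CPM with HPPE and 88.4, 67.4 and 64.7 CPM with zinc protoporphyrin, beside 74.2, 65.1 and 58.2 CPM with DMSO, and differed by 0.84 ± 0.099 (adjusted p 2.83e-05). SLC39A10, a zinc importer of the plasma membrane, stood at 37.2, 42.1 and 44.8 CPM with HPPE and 70.5, 85 and 81.5 CPM with zinc protoporphyrin, beside 85.3, 84.6 and 65.5 CPM with DMSO. HPPE libraries were below all others, with a log2 fold change of -0.99 ± 0.091 (1.99-fold higher with zinc protoporphyrin, adjusted p 4.46e-07), and both this gene and SLC30A1 were called in all 21 alternatives. Of 11 importers tested 2 were higher and 1 lower, against 5.55% and 7.81% of all genes tested. The higher ones, SLC39A13 (0.60 ± 0.17, adjusted p 0.0307) and SLC39A4 (0.47 ± 0.15, adjusted p 0.0423), each lost the call with the control library axis. MTF1 itself was not called (-0.19 ± 0.084, adjusted p 0.121).

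The MT2A promoter is shown because it holds several copies of the metal response element core, searched as TGCACNC or TGCGCNC on both strands and printed in capitals. The window is chr16:56608334-56608583 on the plus strand of GRCh38.p14, from RefSeq. It has 7 matches in 250 bases. Of the 6 genes called higher in this list 3 had a promoter in the table, and all 3 (MT2A, MT1X and SLC30A1) had a match. The 2 genes of the list not called higher had a promoter in the table, and 0 had a match. A match was found in 24.7% of all 27305 promoters and in 33.5% of those of the 11351 tested genes.
MT2A: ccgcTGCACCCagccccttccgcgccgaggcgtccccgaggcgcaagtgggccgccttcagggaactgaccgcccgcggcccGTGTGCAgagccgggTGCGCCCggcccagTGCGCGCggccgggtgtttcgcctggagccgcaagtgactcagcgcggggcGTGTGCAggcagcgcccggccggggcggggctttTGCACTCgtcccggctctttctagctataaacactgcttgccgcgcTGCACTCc

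Of the heat shock and cytosolic chaperone genes 19 of 27 were higher and 0 lower (median 0.46). Of these 19, 16 were called with the control library axis, 14 without zinc protoporphyrin replicate 3 and 13 in all 21 alternatives. HSPA8, the constitutive HSP70, stood at 2028, 2066 and 2079 CPM with HPPE and 1165, 1173 and 1213 CPM with zinc protoporphyrin, beside 1115, 1087 and 1090.4 CPM with DMSO, a log2 fold change of 0.80 ± 0.046 (adjusted p 3.54e-10). Zinc protoporphyrin libraries lay close to DMSO and HPPE libraries far above both. The inducible HSP70 gene HSPA1A stood at 76.3, 66.5 and 68.6 CPM with HPPE and 32.1, 23 and 19.7 CPM with zinc protoporphyrin (1.64 ± 0.12, adjusted p 1.11e-08). Its neighbour HSPA1B stood at 66.7, 68.9 and 64.4 CPM with HPPE and 29.7, 18.8 and 13.2 CPM with zinc protoporphyrin (1.93 ± 0.15, adjusted p 1.08e-07). They are near-identical copies, and the split of reads between them is uncertain. The HSP110 gene HSPH1 had 0.70 ± 0.048 (adjusted p 6.81e-09), the small heat shock protein gene HSPB1 0.69 ± 0.087 (adjusted p 4.28e-05), and the cytosolic HSP90 gene HSP90AA1 0.46 ± 0.075 (adjusted p 8.76e-04). Among cochaperones, DNAJB4 was higher by 1.09 ± 0.11, DNAJB1 by 0.56 ± 0.074, DNAJA1 by 0.54 ± 0.054, FKBP4 by 0.58 ± 0.058 and STIP1 by 0.44 ± 0.054 (adjusted p at most 6.22e-05). HSP90AB1 was not called (0.16 ± 0.065, adjusted p 0.0969), nor was HSF1, the transcription factor of this group (-0.051 ± 0.076, 95% interval -0.21 to 0.11).

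The promoters of HSPA1A and HSPA8 are shown for the heat shock element, searched as TTCNNGAA or GAANNTTC, each of which reads the same on both strands. The windows are chr6:31815293-31815542 on the plus strand and chr11:123062137-123062386 on the minus strand of GRCh38.p14, from RefSeq. HSPA1A has 1 match and HSPA8 has 4, of which pairs overlap. A match was found in 7 of the 18 promoters of genes called higher in this list and in 2 of the 5 that were not called, against 11.7% of all 27305 promoters and 8.48% of those of tested genes.
HSPA1A: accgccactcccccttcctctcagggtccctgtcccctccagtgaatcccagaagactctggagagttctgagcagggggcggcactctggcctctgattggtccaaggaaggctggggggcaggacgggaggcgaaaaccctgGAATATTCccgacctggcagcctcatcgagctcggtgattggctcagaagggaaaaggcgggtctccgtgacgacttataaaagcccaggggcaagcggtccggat
HSPA8: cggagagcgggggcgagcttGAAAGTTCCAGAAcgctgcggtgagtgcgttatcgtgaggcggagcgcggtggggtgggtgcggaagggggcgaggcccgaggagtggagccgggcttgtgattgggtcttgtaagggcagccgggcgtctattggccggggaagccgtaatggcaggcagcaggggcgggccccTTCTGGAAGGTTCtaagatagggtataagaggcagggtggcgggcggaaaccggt

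**Figure D4:**
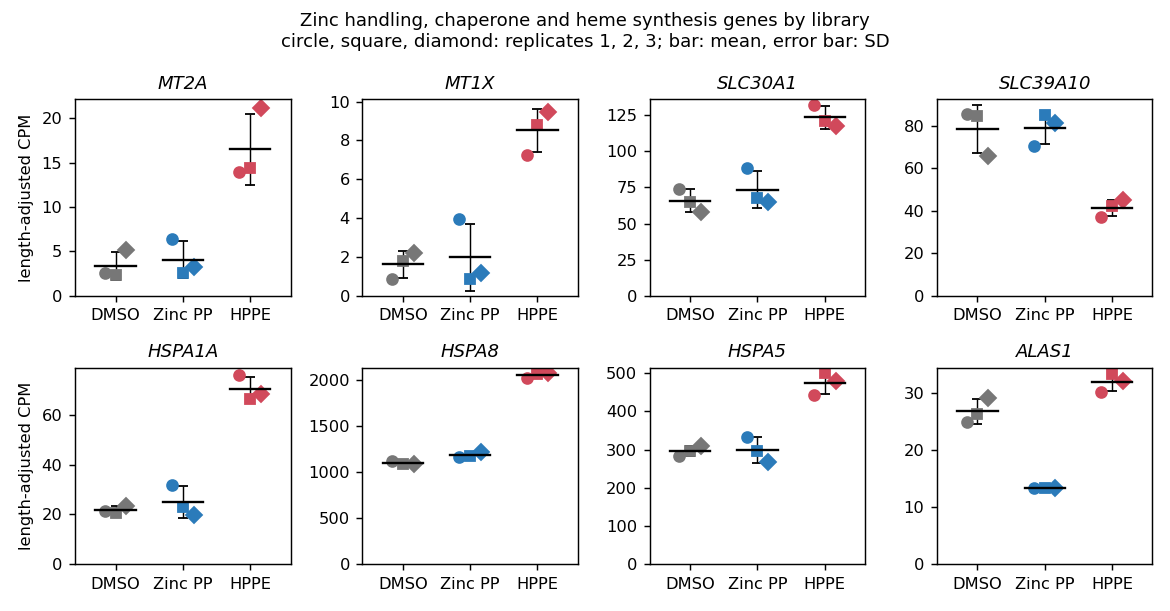
Length-adjusted CPM for 8 genes in the DMSO, zinc protoporphyrin and HPPE libraries, with replicates as symbols, the mean as a bar and the SD as an error bar; axes start at 0. HPPE libraries are above all others in the panels of MT2A, MT1X, SLC30A1, HSPA1A, HSPA8 and HSPA5 and below all others for SLC39A10, whereas for ALAS1 the zinc protoporphyrin libraries are the ones set apart, near 13.3 CPM.

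In the endoplasmic reticulum 11 of 20 genes of the unfolded protein response were higher and 0 lower (median 0.25). Of these 11, 6 were called with the control library axis, 4 without zinc protoporphyrin replicate 3 and 4 in all 21 alternatives. HSPA5, the lumenal HSP70 known as BiP, stood at 442, 499.8 and 479 CPM with HPPE and 334, 296 and 266 CPM with zinc protoporphyrin, beside 283, 296 and 310.0 CPM with DMSO (0.69 ± 0.074, adjusted p 6.57e-06). HSP90B1, its HSP90 partner, had 0.41 ± 0.057 (adjusted p 1.09e-04), the disulfide isomerase gene PDIA4 0.38 ± 0.062 (adjusted p 5.44e-04) and the lectin chaperone gene CALR 0.25 ± 0.053 (adjusted p 0.00504). HERPUD1, DNAJB9 and XBP1, which respond to the same stress, were not called; their log2 fold changes were 0.25, 0.25 and 0.14 (adjusted p 0.237, 0.223 and 0.322). Of the targets of ATF4, a factor translated under the stress kinase PERK, 3 of 28 were higher and 1 lower (median -0.013). The shares among all genes tested were 5.55% and 7.81%. With the control library axis 2 of the 3 higher and 0 of the lower targets were called.

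Autophagy and lysosome genes went in both directions, with 10 of 36 higher and 5 lower (median 0.14), against 5.55% and 7.81% of all genes tested. Of these 10, 6 were called with the control library axis, 2 without zinc protoporphyrin replicate 3 and 2 in all 21 alternatives; of the 5 lower, 1, 0 and 0 were. The ATG8 family gene GABARAPL1 was higher with HPPE, at 12.5, 13.8 and 15.7 CPM with HPPE and 9.24, 5.24 and 5.79 CPM with zinc protoporphyrin (1.22 ± 0.22, adjusted p 0.00159). The lysosomal protease genes CTSL and CTSD had 0.68 ± 0.14 (adjusted p 0.00424) and 0.49 ± 0.11 (adjusted p 0.00534), and the lysosomal membrane gene LAMP2 0.37 ± 0.081 (adjusted p 0.00615). On the other side TFEB, a transcription factor of lysosomal genes, stood at 2.46, 2.28 and 1.77 CPM with HPPE and 3.9, 4.77 and 4.96 CPM with zinc protoporphyrin (-1.07 ± 0.28, adjusted p 0.0171). Its DMSO values, 0.827, 1.58 and 1.77 CPM, lay with those of HPPE, and its call was lost with the control library axis (adjusted p 0.117).

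Of the immediate early genes and MAPK feedback genes 6 of 29 were higher and 4 lower (median 0.11), against 5.55% and 7.81% of all genes tested. Of these 6, 3 were called with the control library axis, 2 without zinc protoporphyrin replicate 3 and 2 in all 21 alternatives; of the 4 lower, 3, 1 and 0 were. EGR1 stood at 42.1, 39.2 and 40.1 CPM with HPPE and 31.6, 23.1 and 22 CPM with zinc protoporphyrin, beside 16.8, 18.5 and 10.9 CPM with DMSO (0.77 ± 0.13, adjusted p 7.11e-04). The mRNA decay factor gene ZFP36 was at 13.8, 13.5 and 11.2 CPM with HPPE and 7.93, 5.84 and 6.13 CPM with zinc protoporphyrin (1.08 ± 0.22, adjusted p 0.00441), and JUN, a subunit of AP-1, differed by 0.43 ± 0.087 (adjusted p 0.0035). JUND went the other way (-0.25 ± 0.066, adjusted p 0.0189), as did DUSP4, a phosphatase of MAP kinases (-0.20 ± 0.064, adjusted p 0.0403); DUSP4 was above DMSO with both compounds (0.30 with HPPE and 0.50 with zinc protoporphyrin, adjusted p 0.00596 and 6.71e-05). The call between the compounds was lost in 7 of 21 alternatives for JUND and in 11 for DUSP4. Of the SRF and YAP targets 2 of 18 were higher and 1 lower, against the same shares of all genes, and all 3 were called with the control library axis. CCN1, a secreted matrix protein, stood at 58.3, 62.1 and 72 CPM with HPPE and 40.8, 38 and 37 CPM with zinc protoporphyrin, both above the 19.8, 22.7 and 20.3 CPM of DMSO (0.74 ± 0.10, adjusted p 1.01e-04). ACTG1, cytoplasmic actin, was likewise above DMSO with both compounds and differed between them by 0.22 ± 0.049 (adjusted p 0.00727). ACTA2, smooth muscle actin, was lower with HPPE (-0.50 ± 0.11, adjusted p 0.00576).

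In the BMP pathway 5 of 17 genes were higher and 0 lower (median 0.08), and 2 of the 5 were called with the control library axis. BAMBI, a pseudoreceptor that dampens BMP and TGF-beta signals, stood at 75.1, 76.9 and 74.4 CPM with HPPE and 53.8, 59.1 and 56.9 CPM with zinc protoporphyrin (0.40 ± 0.077, adjusted p 0.00249) and was the one gene of the 5 called in all 21 alternatives. ID1, a target of BMP signals, had 0.49 ± 0.13 (adjusted p 0.0206). GREM1, a secreted BMP antagonist, was above DMSO with both compounds (1.40 and 0.99, adjusted p 3.28e-08 and 8.31e-06) and differed between them by 0.42 ± 0.088 (adjusted p 0.00716); without the length term that difference was 0.064 (adjusted p 0.588).

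Of hypoxia and glycolysis genes 7 of 28 were higher and 0 lower, against 5.55% higher among all genes tested, and 2 of the 7 were called with the control library axis. PFKFB3, which sets the rate of glycolysis, stood at 78.4, 81.1 and 84.5 CPM with HPPE and 51.7, 56 and 55.6 CPM with zinc protoporphyrin (0.55 ± 0.084, adjusted p 3.23e-04). The mitophagy receptor gene BNIP3 stood at 70, 72.2 and 69.5 CPM with HPPE and 45.5, 53.4 and 54.7 CPM with zinc protoporphyrin (0.42 ± 0.075, adjusted p 0.00134). Sterol and fatty acid synthesis had 0 of 28 higher and 3 lower, of which 1 was called with the control library axis. Among all genes tested 7.81% were lower, a share that also stands beside the p53 and clock lists below. INSIG1, which retains the sterol sensor in the endoplasmic reticulum, stood at 38.4, 36 and 37.8 CPM with HPPE and 47.1, 50 and 50.3 CPM with zinc protoporphyrin (-0.41 ± 0.091, adjusted p 0.00623), and was above DMSO with both compounds (0.33 and 0.74, adjusted p 0.0395 and 6.23e-05). Of 20 p53 targets GADD45A, a stress-induced cell cycle inhibitor, was higher (0.55 ± 0.093, adjusted p 8.75e-04) and ZMAT3 and PHLDA3 were lower (-0.30 ± 0.061 and -0.28 ± 0.091, adjusted p 0.00356 and 0.0439). All 3 were called with the control library axis, but PHLDA3 lost its call in 13 of 21 alternatives. Of 38 proteasome genes PSMD11, a subunit of the lid, was higher by 0.51 ± 0.078 (adjusted p 3.32e-04) and PSMB3 by 0.32 ± 0.10 (adjusted p 0.0414); the call of PSMB3 was lost with the control library axis and in 8 of 21 alternatives in all. The circadian clock list had 1 of 18 lower, NR1D2 (-0.31 ± 0.092, adjusted p 0.0343), and 0 higher. NR1D2 lost its call in 11 of 21 alternatives, with the control library axis among them.

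Lists of short transcripts depended on how the libraries were modelled. A further axis, called the axis of all groups, was drawn from the spread within groups after each group's mean was removed. It therefore holds no difference between group means. Used without offsets, it leaves the length trend between the compounds in place. Of 78 cytosolic ribosomal protein genes 3 were higher and 0 lower with the offsets (median 0.074), 9 and 0 without a length term, 73 and 0 with the axis of all groups as a covariate and no offsets, and 0 and 1 with the control library axis. Of 68 nuclear respiratory chain subunits the counts were 4 and 0, 12 and 0, 47 and 1, and 1 and 0 in the same order. The 13 genes of mitochondrial DNA had a median of -0.50 with the offsets. There 0 were called and 8 had non-overlapping lower values with HPPE, against 19.2% of all genes tested. Their median was 0.047 with the control library axis, also with 0 called, and with the axis of all groups and no offsets 6 were lower. No direction is given for them.

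Axon guidance and cell cycle genes were called lower about as often as all genes tested (7.81%). Of 37 axon guidance genes 5 were higher and 3 lower (median -0.039). With the control library axis 3 of the 5 and all 3 of the lower were called, and the 3 lower ones were called in all 21 alternatives. The semaphorin receptor gene PLXNA4 stood at 538, 545 and 551 CPM with HPPE and 752, 656 and 687 CPM with zinc protoporphyrin (-0.35 ± 0.058, adjusted p 6.83e-04), with DMSO at 720.3, 678 and 678 CPM beside zinc protoporphyrin. The repellent SLIT3 stood at 424, 447 and 483 CPM with HPPE and 552, 567 and 549 CPM with zinc protoporphyrin (-0.31 ± 0.053, adjusted p 0.00104), with both groups below DMSO (-0.54 with HPPE and -0.23 with zinc protoporphyrin, adjusted p 5.16e-07 and 0.012). The semaphorin SEMA5A stood at 124, 119 and 113 CPM with HPPE and 163, 171 and 166 CPM with zinc protoporphyrin (-0.49 ± 0.081, adjusted p 8.76e-04). Another plexin gene, PLXND1, was higher (0.78 ± 0.13, adjusted p 0.00104). Of 36 cell cycle genes 2 were higher and 3 lower, of which 0 and 2 were called with the control library axis. MKI67, the proliferation marker Ki-67, stood at 643, 626 and 654 CPM with HPPE and 787, 796 and 831 CPM with zinc protoporphyrin (-0.33 ± 0.065, adjusted p 0.00286). The kinetochore protein gene CENPF stood at 1010.0, 906 and 917 CPM with HPPE and 1251, 1309 and 1486 CPM with zinc protoporphyrin (-0.52 ± 0.13, adjusted p 0.0278). Of the 21 noradrenergic markers 4 were lower and 0 higher: TFAP2B (-0.25 ± 0.051, adjusted p 0.00401), CHGA (-0.26 ± 0.061, adjusted p 0.0108), ALK (-0.26 ± 0.063, adjusted p 0.0113) and RET (-0.29 ± 0.073, adjusted p 0.0149). Of these 4, TFAP2B and CHGA were called with the control library axis. TFAP2B was above DMSO with zinc protoporphyrin (0.37, adjusted p 1.46e-04), whereas CHGA, a granin of secretory granules, was below DMSO with HPPE (-0.45, adjusted p 3.74e-05). Of the markers of other cells, 2 of 11 mesenchymal genes, FN1 (0.29 ± 0.064, adjusted p 0.0065) and NOTCH3 (0.23 ± 0.072, adjusted p 0.0413) were higher with HPPE. The sign of NOTCH3 turned when median transcript length was used. COL1A2 (-0.91 ± 0.21, adjusted p 0.00818) of the same list and the Schwann cell factor gene SOX10 (-2.12 ± 0.65, adjusted p 0.0376) were lower. SOX10 was near the limit of detection, with at most 25 counts in any library. Its values overlapped between the compounds, and its call was lost in 6 of 20 alternatives. With the control library axis 1 of the higher and 0 of the lower genes among these markers of other cells were called. The part of such cells in the results was not tested.

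**Figure D5:**
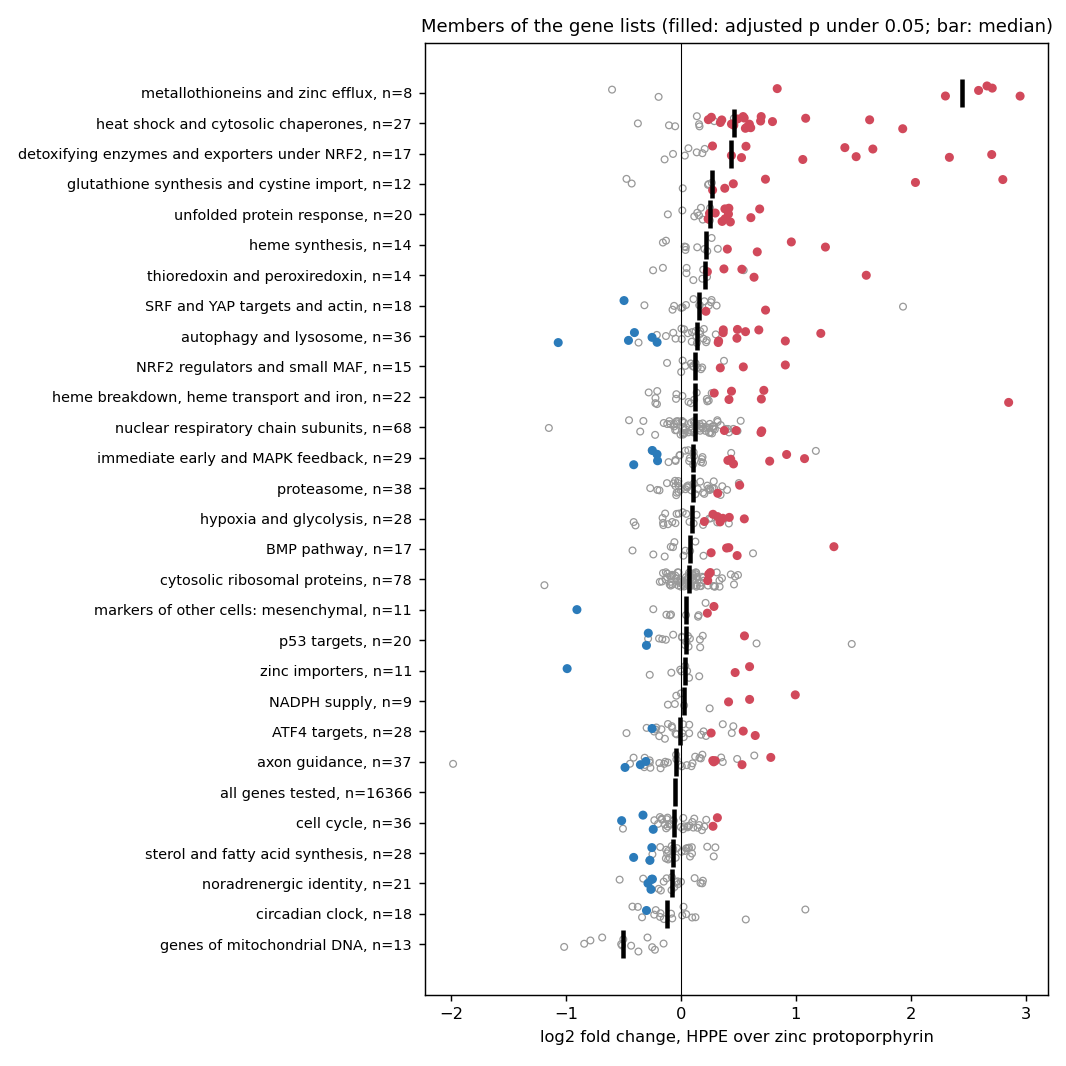
Each point is a listed gene, placed by its log2 fold change of HPPE over zinc protoporphyrin; filled points passed an adjusted p of 0.05 (red higher, blue lower), and bars are list medians. Metallothioneins and zinc efflux lie farthest to the right (median 2.45), the chaperone and detoxifying lists follow at 0.46 and 0.44, and all genes tested lie at -0.053. Vertical scatter within a row has no meaning.

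Among the most abundant genes called in both directions, the rule named HSPA8, HSP90AA1 and ACTG1 together with VGF and HNRNPA2B1 on the higher side. VGF, a neurosecretory protein induced by growth factors, stood at 1244, 1139 and 1203 CPM with HPPE and 862, 719 and 537 CPM with zinc protoporphyrin, beside 476, 528 and 558 CPM with DMSO (0.78 ± 0.16, adjusted p 0.0146); it lost its call in 2 of 21 alternatives. HNRNPA2B1, an RNA-binding protein, had 0.61 ± 0.17 (adjusted p 0.0487) and lost its call in 10. On the lower side stood CENPF, the nonmuscle myosin heavy chains MYH10 and MYH9, CBX5 and PRKCA. MYH10 was at 808, 812 and 789 CPM with HPPE and 967, 990.2 and 1003 CPM with zinc protoporphyrin, with DMSO at 830.1, 768 and 787 CPM beside HPPE (-0.30 ± 0.055, adjusted p 0.00172), and was called in all 21 alternatives. MYH9 was above DMSO with both compounds (0.32 and 0.54, adjusted p 0.00152 and 1.0e-05) and differed by -0.21 ± 0.06 (adjusted p 0.0243). CBX5 and PRKCA differed by -0.17 ± 0.056 and -0.15 ± 0.048 (adjusted p 0.0484 and 0.0481). MYH9 lost its call in 9 of 21 alternatives, CENPF in 6, and CBX5 and PRKCA in 11 each.

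The largest decreases by the rule were in genes of low abundance, and most were not coding. They were PM20D1, LINC01735, DANT2, SLIT3-AS2, LINC02269, YES1P1, TUBG1P, RHCG, LINC01717 and ANKRD20A11P, with log2 fold changes between -2.02 and -1.37. PM20D1, an enzyme that makes N-acyl amino acids, stood at 1.72, 0.957 and 0.863 CPM with HPPE and 5.51, 4.13 and 5.81 CPM with zinc protoporphyrin (-2.02 ± 0.36, adjusted p 0.00154) and was the one of the 10 called in all 21 alternatives. With the control library axis it was -1.38 (adjusted p 0.0476). SLIT3-AS2 also kept its call there (-0.83, adjusted p 0.0189), and the other 8 did not. Use of strand in counting is not given in the sources used here. For SLIT3-AS2 and the antisense genes below, reads of an overlapping gene therefore cannot be told apart from their own. With the offsets, 32 of 146 sense-intronic, 35 of 198 unconfirmed, 109 of 967 antisense and 57 of 649 lincRNA genes were lower, or 21.9%, 17.7%, 11.3% and 8.78%, against 7.81% of all genes. Without a length term the counts were 23, 25, 57 and 44, and with the control library axis 3, 2, 4 and 3. The groups' noncoding share of counts and their axis scores differed in the same way, and the parts of compound and library cannot be told apart for these genes.

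Outside the rule, the remaining genes called at least 2-fold in all 21 alternatives were examined; those named here were chosen after their values were seen. On the lower side were TGFB3 and TGFB2, ligands of the TGF-beta family. TGFB3 stood at 4.81, 5.36 and 4.74 CPM with HPPE and 12.4, 11.8 and 14.4 CPM with zinc protoporphyrin, with DMSO at 13.4, 11.7 and 13.7 CPM beside zinc protoporphyrin (-1.37 ± 0.17, adjusted p 3.69e-05). TGFB2 stood at 24.6, 27.2 and 30 CPM with HPPE and 43.7, 58.7 and 52.6 CPM with zinc protoporphyrin, with DMSO between them at 38.3, 34.3 and 38.3 CPM (-1.01 ± 0.099, adjusted p 1.42e-06). Each compound's own change of TGFB2 was called, at -0.45 with HPPE (adjusted p 0.00884) and 0.56 with zinc protoporphyrin (adjusted p 0.00148). The histamine receptor gene HRH2 was at 0.619, 0.917 and 0 CPM with HPPE and 5.35, 3.68 and 4.66 CPM with zinc protoporphyrin (-2.72 ± 0.43, adjusted p 4.98e-04). RGS8, a regulator of G-protein signals, stood at 1.37, 1.78 and 1.29 CPM with HPPE and 4.49, 5.53 and 4.07 CPM with zinc protoporphyrin (-1.62 ± 0.29, adjusted p 0.00158). FILIP1L stood at 71.9, 65.5 and 63.8 CPM with HPPE and 119.9, 124 and 158 CPM with zinc protoporphyrin, a log2 fold change of -1.02 ± 0.12 (adjusted p 1.60e-04). Against DMSO it was 0.82 with zinc protoporphyrin (adjusted p 0.00112) and -0.20 with HPPE (adjusted p 0.427). On the higher side, the pannexin gene PANX2 stood at 17.1, 13.4 and 16.2 CPM with HPPE and 3.86, 6.61 and 4.81 CPM with zinc protoporphyrin (1.48 ± 0.22, adjusted p 2.59e-04). F2RL2, a receptor of the thrombin receptor family, stood at 6.8, 8.66 and 8.83 CPM with HPPE and 2.3, 3.07 and 1.91 CPM with zinc protoporphyrin (1.69 ± 0.27, adjusted p 4.78e-04). PRR5, a partner of mTOR complex 2, stood at 23.9, 20.1 and 21.5 CPM with HPPE and 4.71, 8.37 and 9.18 CPM with zinc protoporphyrin (1.39 ± 0.16, adjusted p 1.30e-05). In HPPE replicates 1, 2 and 3, 3 counts corresponded to 0.375, 0.349 and 0.95 CPM, and in zinc protoporphyrin replicate 1 to 2.26 CPM. The HRH2 values with HPPE therefore rest on few reads. So do the values of HRH2, RGS8, PANX2, F2RL2 and PRR5 in zinc protoporphyrin replicate 1.

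Against DMSO, 723 genes (4.42%) were higher and 510 (3.12%) lower with HPPE, and 589 (3.6%) higher and 228 (1.39%) lower with zinc protoporphyrin. Both comparisons share the 3 DMSO libraries, so their values are set side by side only. Of the 908 genes higher with HPPE than with zinc protoporphyrin, 294 were above DMSO with HPPE, 89 were below DMSO with zinc protoporphyrin and 526 passed in neither. Of the 1278 lower genes, 245 were below DMSO with HPPE, 222 were above DMSO with zinc protoporphyrin and 813 passed in neither. By list, chaperones were above DMSO in 18 of 27 genes with HPPE and in 1 with zinc protoporphyrin. Metallothioneins and zinc efflux were above DMSO in 6 of 8 with HPPE and in 0 with zinc protoporphyrin, and detoxifying enzymes in 9 and 2 of 17. Immediate early and MAPK feedback genes were above DMSO in 17 of 29 with HPPE and 11 with zinc protoporphyrin, the SRF and YAP targets in 14 and 11 of 18, and sterol and fatty acid synthesis in 9 and 7 of 28. HMOX1, GCLM, OSGIN1, ABCC3, SQSTM1 and CCN1 were above DMSO with both compounds, and higher with HPPE. For HMOX1 the log2 fold changes were 5.88 and 3.03 (adjusted p 4.78e-11 and 2.23e-06), and for GCLM 2.60 and 0.56 (adjusted p 2.14e-13 and 0.00623). NQO1, TXNRD1, HSPA8, SLC30A1 and SLC39A10 passed with HPPE and not with zinc protoporphyrin, where their log2 fold changes were 0.12, 0.15, 0.11, 0.037 and -0.0068; the difference itself was the test given above.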

How the data were processed

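The deposited table holds raw read counts per gene for 12 libraries; the authors' steps before it name fastp 0.21.1, STAR 2.7.7a, featureCounts and GRCh38, per the submitters' processing notes. Whether counting used strand, and the gene annotation, are not given in the sources used here. Identifiers matched GENCODE release 29, which gave symbols for 60481 genes and transcript lengths for 98.9% of those tested.

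Genes were filtered with filterByExpr, which kept 16366 genes with 99.6% of counts. Library sizes were scaled by TMM. Each library's trend with log2 length of the longest transcript was fitted by lowess with a span of 0.3 and entered as an offset. edgeR 4.0.16 (R 4.3.3) fitted 1 mean for each of 4 groups with the robust quasi-likelihood test, 2-sided, with Benjamini-Hochberg adjustment over all genes tested and a threshold of 0.05. Totals ran from 1337028 to 9145399 counts per library. HPPE replicates 2 and 3 differed by little more than counting noise (chi-square 1.11 per degree of freedom, against 1.49 to 17.3 in the other pairs) and were kept as separate libraries.

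Named genes were members of the lists; the 10 largest increases and decreases and the 5 most abundant called genes each way whose groups did not overlap; and genes showing the length trend. Genes outside this rule are marked. The values of 1 list member are not reported here. The gene groups and lists were chosen with earlier results of these data known. Alternatives changed the length term, library axis, filter, scaling, tool (DESeq2 1.42.0), libraries and pairing. The main fit and the fit without a length term were tested on simulated counts with known changes. The other alternatives and the remaining code were not. The simulated counts held the fitted length trend and no library axis, so they cannot show how the calls behave where such an axis separates the groups. Promoters are the 250 bases before each RefSeq gene start; motif matches are a description.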

Additional observations from a re-analysis of the deposited data

How the results depend on the processing

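Counts of genes higher and lower with HPPE moved by more than 1.5 times under several settings, and the cause was not tested beyond the settings themselves. With the axis of all groups as a covariate the counts were 3017 and 2681 without length offsets and 1794 and 2578 with them. This axis holds no difference between group means, so it takes up spread within groups and does not correct for library differences between them. The counts were 570 and 766 with DESeq2 and 1463 and 2003 in a fit of the 6 compared libraries. With HPPE replicates 2 and 3 summed they were 466 and 618, and with the control library axis 393 and 412. With no filter 1952 genes were lower. Leaving out 1 library gave 242 to 805 higher and 319 to 1202 lower. At least 2-fold, the higher count of 53 became 96 without a length term, 112 with the axis and no offsets, 35 with DESeq2, 27 with the control library axis and 33 to 52 without 1 library. The 330 lower at least 2-fold became 216 without a length term, 550 with the axis and the offsets, 741 with no filter, 175 with DESeq2, 147 with the replicates summed, 24 with the control library axis and 22 to 457 without 1 library.

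The replicate numbers did not pair the libraries: same-numbered HPPE and zinc protoporphyrin libraries correlated at -0.15, 0.013 and -0.16 in their deviations. With the replicate number as a block 567 genes were higher and 653 lower, 113 of these lower at least 2-fold.

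Among the genes named, 4 turned in sign, of which NOTCH3 was called with the offsets. NOTCH3, at 0.23, was -0.045 with median transcript length. TTN, at 0.23 with the offsets, was -0.53 without a length term, -0.50 with the axis and no offsets, -0.48 with median transcript length and -0.056 with the control library axis. BACH1 was -0.0095 with median transcript length. HSF1 was 0.034 without a length term and 0.026 with the axis and no offsets.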
